A study of Mus musculus with 12 samples.

Results

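The genes described here are 10 mouse genes for monocyte chemokines, their receptors and inflammatory cytokines, namely Ccl2, Ccl7, Ccl3, Ccl4, Cxcl10, Ccr2, Cx3cr1, Csf1, Il1b and Tnf. They were taken by symbol from a table of 38087 gene models, and all 10 were present and passed the filter on low counts, as did 22384 models in all. The study sequenced bulk RNA from the sciatic nerve of mice in 12 libraries, with 3 biological replicates in each of 4 groups. The dKO mice were Dhh-Cre+:Tfebflox/flox;Tfe3KO, and so lacked Tfe3 in every cell and had Tfeb deleted in cells with active Dhh-Cre, which marks Schwann cells and their precursors. The controls were Dhh-Cre-:Tfebflox/flox;Tfe3+, so that every mouse of the study carried the floxed Tfeb alleles and the controls lacked only Cre and the Tfe3 mutation. The 4 groups were the distal stump of dKO nerve 5 days after transection, the same stump of control nerve, intact dKO nerve and intact control nerve. Intact nerve came from the uninjured side of the operated animals and is therefore not nerve of unoperated mice. Epineurium was removed from intact nerve, and no such step is stated for the stumps. The ages of the mice are not given. Tfe3 and Tfeb encode transcription factors of lysosomal and stress genes, and the comparisons ask how injury and the loss of both factors change these messengers.

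After a nerve is cut, axons beyond the cut degenerate, and Schwann cells and resident macrophages release chemokines that call monocytes out of the blood. Ccl2 and Ccl7 are ligands of Ccr2, the receptor by which classical monocytes enter tissue. Ccl3 and Ccl4 are macrophage inflammatory chemokines, and Ccl3 acts on Ccr1. Cxcl10 is an interferon-induced ligand of Cxcr3 on activated T cells. Cx3cr1 is the fractalkine receptor of resident macrophages, Csf1 is the growth factor that macrophages need to survive, and Il1b and Tnf are early inflammatory cytokines.

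Ccl2, Ccl7, Ccl3, Ccl4 and Ccr2 rose after transection in both genotypes, with fitted changes of 1.71 to 6.13 on the log2 scale. Ccr2 rose the most among the members with more than a few reads in intact nerve, 10.4-fold in dKO and 7.46-fold in control. The level of Csf1 and the count of the Cx3cr1 model differed little between injured and intact nerve, and Il1b and Tnf had few reads in every group. The Cx3cr1 count includes reads of other genes and cannot be read as the receptor's own. Cxcl10 passed the test after transection in dKO and not in control, and the difference of the changes did not pass. No member passed the test between dKO and control, in injured or in intact nerve.

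Library totals ran from 15430999 to 35845371 counts, and levels are in CPM, counts per 1000000 counts of the scaled library. Schwann cell markers summed to 83073 to 92830 CPM in intact dKO nerve and 76656 to 100309 CPM in intact control nerve, as the labelled tissue requires, and to 5014 to 6044 and 3615 to 5104 CPM in the dKO and control stumps. Tfe3 was at 49.5 to 53.8 CPM in dKO stumps against 55.0 to 67.6 CPM in control stumps, and at 43.3 to 47.4 CPM in intact dKO nerve against 56.7 to 62.1 CPM in intact control nerve. Neither difference passed the test (adjusted p 0.126 and 0.841, edgeR), and a count over a whole gene does not isolate the disrupted part. Tfeb was at 14.2 to 29.8 CPM in dKO stumps against 18.2 to 24.0 CPM in control stumps, and at 19.5 CPM or less in intact dKO nerve against 22.6 CPM or more in intact control nerve, and did not pass either (adjusted p 0.883 and 0.856, edgeR). The 3 dKO stumps and control stump replicate 4 had reads in 174 to 366 olfactory receptor genes at equal depth, and the other 8 libraries in 54 to 74. These 4 libraries are called the second library set here. Because all dKO stumps are in it, this set and the dKO stump cannot be told apart except through control stump replicate 4. Control stump replicate 1 was the only library with high Xist, at 10712 counts, and low Y-linked counts, at 244. All other libraries had at most 23 Xist counts and at least 1907 Y-linked counts. These sex-linked counts set control stump replicate 1 apart in the control injury comparison and in the genotype comparison at 5 days. An effect of sex was not tested. Red blood cell markers in control stump replicate 1 summed to 7962 CPM.

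The promoters of a pair of the chemokines are shown first, because their letters differ while both genes are induced by inflammatory signals. Each is the 250 bases before the RefSeq start of the gene on GRCm38.p6, written 5′ to 3′ on the gene's own strand. Capitals mark matches to GGNNNTTCC (NF-kB type), TGANTCA (AP-1 type) and GAAA followed after 2 further bases by GAAA (interferon response type).
Cxcl10 (chr5:92348890-92349139, minus strand): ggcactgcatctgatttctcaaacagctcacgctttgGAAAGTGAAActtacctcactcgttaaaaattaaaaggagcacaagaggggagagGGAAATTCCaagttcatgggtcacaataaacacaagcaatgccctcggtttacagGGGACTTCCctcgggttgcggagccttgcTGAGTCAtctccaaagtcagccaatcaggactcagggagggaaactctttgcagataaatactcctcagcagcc
Ccl3 (chr11:83649379-83649628, minus strand): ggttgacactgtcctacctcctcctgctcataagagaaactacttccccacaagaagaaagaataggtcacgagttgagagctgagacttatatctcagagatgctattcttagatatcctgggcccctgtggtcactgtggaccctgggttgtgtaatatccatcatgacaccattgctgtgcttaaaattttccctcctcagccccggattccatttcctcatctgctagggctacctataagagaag
In Cxcl10 the interferon response type match began 213 bases before the start, the NF-kB type matches 158 and 103 bases before it, and the AP-1 type match 74 bases before it. The match at 158 fits the NF-kB type letters on both strands, and no match overlaps one of another kind. The Ccl3 window held none of these letters on either strand, which says nothing of other sites or of the factors. Promoter sequence was at hand for 7 of the 10 members, Ccl3, Ccr2, Cx3cr1, Cxcl10, Il1b, Tnf and Csf1. The NF-kB type letters were in 3 of these, Cxcl10, Tnf and Csf1, and in 15.6% of 27025 mouse promoters of the same length searched on both strands. The AP-1 type letters were in Cxcl10 alone among the 7, and in 6.87% of all promoters. The interferon response type letters were also in Cxcl10 alone among the 7, and in 3.04% of all promoters.

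The injury comparison set the stumps against intact nerve within each genotype. In dKO, 6 of the 10 members rose and none fell, where 22% of all tested models rose and 44.7% changed in either direction. In control, 5 of the 10 rose and none fell, where 24.4% of all tested models rose and 46.8% changed. The median change of the members was 2.26 in dKO and 1.71 in control on the log2 scale, beside 0.05 and 0.09 over all tested models. Every injured library lay above every intact one of its genotype for 5 members in dKO and the same 5 in control, where 31.1% and 27.8% of all models did so in that direction.

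**Figure D1:**
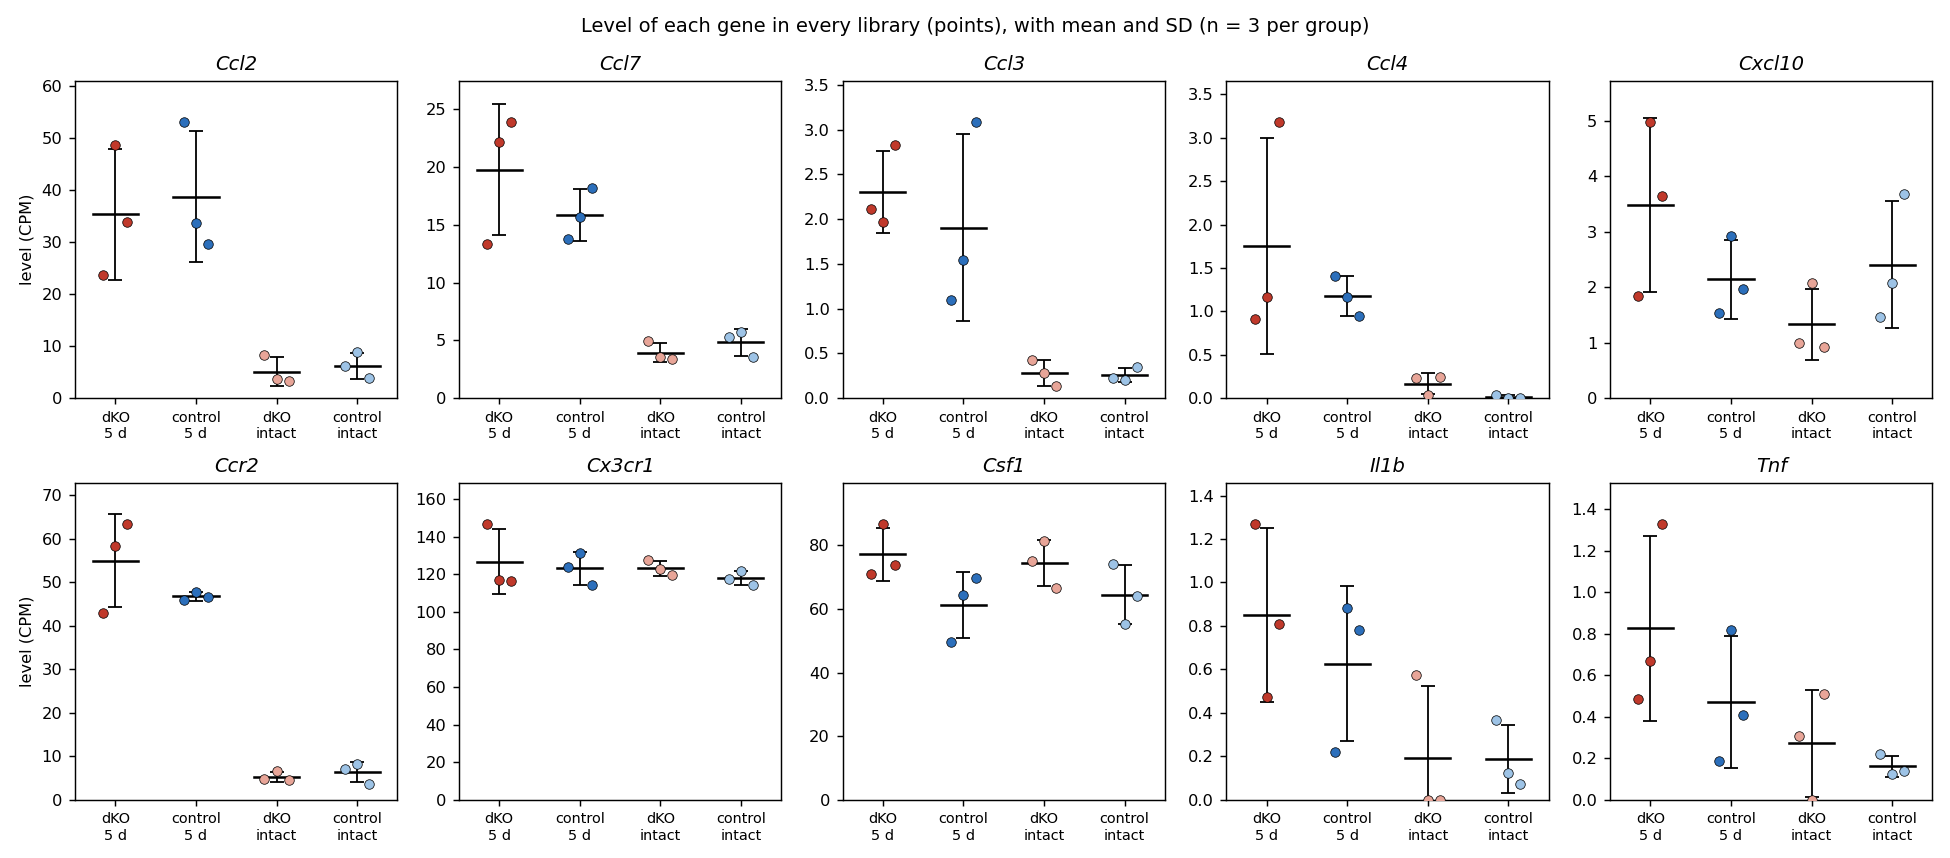
Level in CPM (vertical axes, linear, each from 0) of the 10 genes in every library, with points for libraries and bars for the mean and SD (n = 3 per group). Ccl2, Ccl7, Ccl3, Ccl4 and Ccr2 are separated between stump and intact nerve, while Csf1 and Cx3cr1 are at like levels in all 4 groups; the Cx3cr1 count includes reads of other genes.

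Among the ligands of Ccr2, Ccl2 (chr11:82035571-82037453) stood at 23.6, 48.6 and 33.7 CPM in dKO stumps, 53.0, 33.6 and 29.5 CPM in control stumps, 8.23, 3.63 and 3.26 CPM in intact dKO nerve and 6.11, 8.80 and 3.79 CPM in intact control nerve. All 6 stumps were above all 6 intact nerves, and the genotypes overlapped in each state. Ccl2 rose by 2.82 ± 0.45 (log2 fold change ± SE) in dKO and 2.64 ± 0.45 in control (adjusted p 0.000498 and 0.000596, edgeR quasi-likelihood test with Benjamini-Hochberg adjustment, as for every adjusted p here). The antisense model Gm17268 encloses Ccl2 and had the same count or up to 7 reads more in each library, so reads of the pair cannot be told apart.

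Ccl7 (chr11:82045712-82047525), the next gene on the same strand, was at 13.3, 22.1 and 23.9 CPM in dKO stumps and 13.7, 15.6 and 18.2 CPM in control stumps, against 4.90, 3.54 and 3.36 CPM in intact dKO nerve and 5.30, 5.70 and 3.51 CPM in intact control nerve. Again no stump was as low as any intact nerve. The change was 2.33 ± 0.26 in dKO (adjusted p 6.00e-06) and 1.71 ± 0.26 in control (adjusted p 6.90e-05, edgeR). The difference of the changes was 0.62 (95% interval -0.14 to 1.38, adjusted p 0.431, edgeR). Ccl7 and Ccl2 did not keep one ratio. There were 56.5, 45.6 and 70.7 Ccl7 reads per 100 Ccl2 reads in dKO stumps and 25.9, 46.4 and 61.5 in control stumps, against 59.5, 97.5 and 103 in intact dKO nerve and 86.8, 64.8 and 92.6 in intact control nerve. In control the ratio was lower in every stump than in any intact nerve, and in dKO the ranges overlapped.

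Ccl3 and Ccl4 were far scarcer. Ccl3 (chr11:83647844-83649355) was at 2.11, 1.97 and 2.83 CPM in dKO stumps and 1.10, 1.54 and 3.08 CPM in control stumps, against 0.421, 0.274 and 0.136 CPM in intact dKO nerve and 0.219, 0.207 and 0.351 CPM in intact control nerve. Stumps and intact nerves did not overlap. The change was 3.04 ± 0.54 in dKO (adjusted p 0.000370) and 2.84 ± 0.54 in control (adjusted p 0.000561, edgeR).

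Ccl4 (chr11:83662584-83664683), which lies beside Ccl3 on the other strand, gave 30, 42 and 55 reads in dKO stumps and 45, 37 and 23 reads in control stumps, against 6, 1 and 7 reads in intact dKO nerve and 1, 0 and 0 reads in intact control nerve. Here too every stump was above every intact nerve. The change in dKO was 3.37 ± 0.74 (adjusted p 0.00209, edgeR). In control the fitted change of 6.13 ± 1.03 (adjusted p 0.000199, edgeR) rests on 105 reads in all against 1 and depends on the prior count. As a ratio of summed reads scaled by library size it was 95.4, with an exact 95% interval of 16.7 to 3802 that covers counting error only. With a term for the second library set, the changes in dKO were 1.82 for Ccl3 and 3.81 for Ccl4 and no longer passed (adjusted p 0.126 and 0.0571, edgeR), while those in control passed.

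Cxcl10 (chr5:92346638-92348889) was at 1.84, 4.97 and 3.64 CPM in dKO stumps and 1.53, 2.92 and 1.97 CPM in control stumps, against 0.995, 2.07 and 0.916 CPM in intact dKO nerve and 1.46, 2.07 and 3.69 CPM in intact control nerve. Stump and intact ranges overlapped in both genotypes, and the highest intact control nerve was above every control stump. The change was 1.38 ± 0.48 in dKO (adjusted p 0.0302, edgeR) and -0.17 ± 0.47 in control (adjusted p 0.797, edgeR). The difference of the changes was 1.55 ± 0.67 (95% interval 0.11 to 2.99), with an unadjusted p of 0.0364 and an adjusted p of 0.273 (edgeR). The call in dKO was lost without any of 4 libraries: intact dKO replicate 2 (change 1.18, adjusted p 0.108) or 4 (1.16, adjusted p 0.115), and dKO stump replicate 3 (1.02, adjusted p 0.148) or 4 (1.34, adjusted p 0.0659, edgeR). It was also lost with the term for the second library set (1.56, adjusted p 0.271, edgeR). Cxcl10 lies inside Art3 on the opposite strand and shares 133 exon bases with it. Art3 averaged 80.1 CPM in dKO stumps and 66.0 CPM in control stumps, against 486 CPM in intact dKO nerve and 506 CPM in intact control nerve. Its part in the Cxcl10 counts was not tested.

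Ccr2 (chr9:124101950-124113557), the receptor for Ccl2 and Ccl7, was at 42.9, 58.4 and 63.3 CPM in dKO stumps and 45.8, 47.8 and 46.5 CPM in control stumps, against 4.67, 6.59 and 4.51 CPM in intact dKO nerve and 6.99, 8.14 and 3.69 CPM in intact control nerve. The lowest stump was at 42.9 CPM and the highest intact nerve at 8.14 CPM. Ccr2 rose by 3.38 ± 0.26 in dKO (adjusted p 2.29e-07) and 2.90 ± 0.25 in control (adjusted p 5.44e-07, edgeR), and passed under every alternative setting tried in both genotypes. Unlike Ccl2 and Cxcl10, it has no overlapping gene in GENCODE M21, nor have Ccl3, Ccl4, Ccl7, Tnf and Csf1.

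The Cx3cr1 model was flat, at 147, 117 and 116 CPM in dKO stumps, 124, 131 and 114 CPM in control stumps, 127, 123 and 119 CPM in intact dKO nerve and 117, 122 and 114 CPM in intact control nerve. All 4 groups overlapped, and the change was 0.04 ± 0.10 in dKO and 0.06 ± 0.10 in control (adjusted p 0.777 and 0.651, edgeR). This flat count cannot be read as the receptor's own. In GENCODE M21 the Cx3cr1 model spans chr9:119901616-120069879, encloses Gorasp1, Csrnp1, Xirp1 and Ttc21a and overlaps Wdr48. Across the table, an enclosing model with no shared exon bases had at least the count of the model inside it in all 12 libraries for 517 of 549 pairs (94.2%), on the opposite strand as on the same one. Less the reads of the 4 enclosed genes, 52.8 to 69.1 CPM were left for Cx3cr1 in dKO stumps and 45.8 to 65.0 CPM in control stumps, against 54.7 to 61.0 CPM in intact dKO nerve and 55.4 to 67.8 CPM in intact control nerve. Less Wdr48 as well, the remainder was below 0 in control stump replicate 1 and in all 6 intact nerves. This check and the subtraction were chosen after seeing the data.

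Csf1 (chr3:107741048-107760469) was at 71.1, 86.7 and 74.0 CPM in dKO stumps and 49.8, 64.4 and 69.6 CPM in control stumps, against 75.2, 81.3 and 66.8 CPM in intact dKO nerve and 74.1, 55.3 and 64.1 CPM in intact control nerve. Stump and intact ranges overlapped in each genotype. The change was 0.05 ± 0.14 in dKO and -0.08 ± 0.14 in control (adjusted p 0.779 and 0.693, edgeR).

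Il1b (chr2:129364570-129371139) gave 42, 17 and 14 reads in dKO stumps and 7, 28 and 19 in control stumps, against 15, 0 and 0 in intact dKO nerve and 10, 3 and 2 in intact control nerve. In CPM the ranges overlapped in both genotypes, with 0.472 to 1.27 CPM in dKO stumps against up to 0.574 CPM in intact dKO nerve. The fitted changes of 2.19 ± 1.12 in dKO and 1.71 ± 1.12 in control did not pass (adjusted p 0.126 and 0.230, edgeR). One library decided this in dKO. Without intact dKO replicate 2, which held all 15 intact reads, the test was passed (adjusted p 0.00235, edgeR), and the stumps were at least 17.5-fold higher than a floor of 3 reads over the group. Il1b shares 25 exon bases with the antisense gene Il1bos.

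Tnf (chr17:35199381-35202007) gave 16, 24 and 23 reads in dKO stumps and 6, 26 and 10 in control stumps, against 8, 0 and 15 in intact dKO nerve and 6, 3 and 4 in intact control nerve. Levels overlapped in both genotypes. The changes of 1.58 ± 0.89 in dKO and 1.52 ± 0.95 in control did not pass (adjusted p 0.166 and 0.206, edgeR). The ratio of summed Tnf reads scaled by library size was 2.80 in dKO (exact 95% interval 1.71 to 4.73, counting error only) and 2.93 in control (1.54 to 5.96), and that of Il1b 4.98 in dKO (2.83 to 9.34) and 3.27 in control (1.82 to 6.24). These intervals lay above 1, while the fitted log2 intervals, which also hold the spread between libraries, spanned 0 for both genes in both genotypes.

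Levels were also divided by kilobases of exon. Because the counts may include reads of introns and of overlapping genes, this scale compares genes only roughly. On it Ccl2 led in the stumps with means of 31.0 CPM per kb in dKO and 34.0 in control. Next came Ccl7 with 24.7 in dKO and 19.8 in control and Csf1 with 14.6 in dKO and 11.6 in control. Ccr2 was at 8.12 in dKO and 6.91 in control. Ccl3, Ccl4 and Cxcl10 followed at 3.01, 2.65 and 1.55 CPM per kb in dKO stumps and 2.49, 1.78 and 0.952 in control stumps. Tnf and Il1b were lowest at 0.504 and 0.446 in dKO stumps and 0.288 and 0.329 in control stumps. The ranges of neighbours in this order overlapped for Ccl3 and Ccl4 and for Tnf and Il1b in both genotypes, and for Ccl2 and Ccl7 and for Ccl4 and Cxcl10 in dKO; the other neighbours were apart in all 3 libraries of each genotype. Cx3cr1 was left out of this order, while Ccl2, Cxcl10 and Il1b, which also overlap other genes, were kept in it. In intact nerve the order was another, with Csf1 first at 14.1 CPM per kb in dKO and 12.2 in control, ahead of Ccl7 at 4.91 in dKO and 6.04 in control and Ccl2 at 4.43 in dKO and 5.48 in control, whose ranges overlapped.

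**Figure D2:**
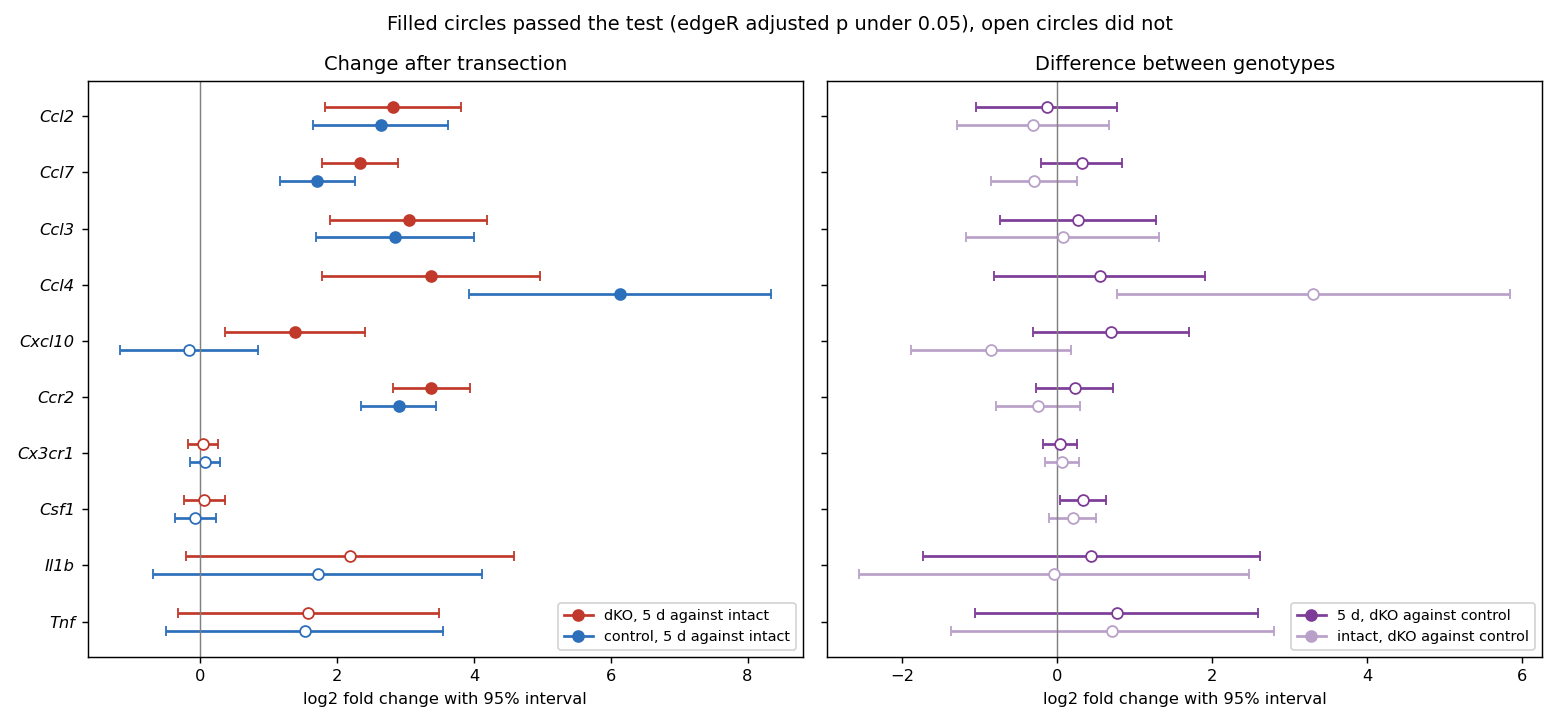
Fitted log2 fold change with its 95% interval for each gene, for 5 days against intact in dKO and control (left) and for dKO against control at 5 days and in intact nerve (right). Filled circles passed the test at an adjusted p under 0.05: 6 in dKO and 5 in control on the left, and none on the right.

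The genotype comparison asked whether the members differ between dKO and control. At 5 days none of the 10 passed, where 12.1% of all tested models did, and their median difference was 0.33 beside -0.02 over all tested models. An unadjusted p under 0.05 was reached by 6070 models, and among the members by Csf1 alone; DESeq2 likewise called no member in either genotype comparison or in the difference of the injury changes. Csf1 was 0.34 ± 0.14 higher in dKO stumps on the log2 scale (95% interval 0.03 to 0.64), with an unadjusted p of 0.0320 and an adjusted p of 0.141 (edgeR). Its 3 dKO values, the lowest at 71.1 CPM, were all above the 3 control values, the highest at 69.6 CPM. That highest control value was of replicate 4, the control stump in the second library set. Over 18 alternatives the Csf1 difference was 0.15 to 0.43 (adjusted p 0.0685 to 0.863, edgeR or DESeq2). Csf1 was the only member with such a separation, which 12.6% of all models showed in that direction.

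The intervals say what differences between the genotypes at 5 days the data leave possible. They were -0.27 to 0.73 for Ccr2, -0.20 to 0.84 for Ccl7 and -1.04 to 0.78 for Ccl2. They were wider for Ccl3 at -0.73 to 1.28, for Cxcl10 at -0.30 to 1.70 and for Ccl4 at -0.82 to 1.92. For Il1b and Tnf they spanned -1.73 to 2.62 and -1.06 to 2.60, and so held large differences in either direction.

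In intact nerve none of the 10 passed, where 0.00447% of all tested models did, and their median difference was 0.01 beside -0.01 over all tested models. Ccl4 was 3.31 ± 1.18 higher in intact dKO nerve (unadjusted p 0.0142, adjusted p 0.850, edgeR), on 14 reads in all in dKO against 1 in control. Cxcl10 had a difference of -0.85 ± 0.48 (adjusted p 0.878, edgeR). The difference of the injury changes passed for none of the 10 members, where 2.9% of all tested models passed. Cxcl10 alone had an unadjusted p under 0.05 there, and Ccl4 followed at 0.0602, with a difference of -2.76 ± 1.35 (adjusted p 0.345, edgeR).

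The members were set beside markers of macrophages, monocytes, neutrophils and lymphocytes. Other cells, such as Schwann cells, may also express some members. A ratio to macrophage markers is therefore not a level per producing cell. In bulk RNA, more cells of a type and more RNA per cell cannot be told apart. The 17 macrophage markers summed to 1539 to 2069 CPM in dKO stumps and 1617 to 2541 CPM in control stumps, against 351 to 511 CPM in intact dKO nerve and 360 to 516 CPM in intact control nerve. Of these markers, 15 rose and 1 fell after transection in dKO, and 14 rose and none fell in control, with median changes of 2.25 in dKO and 2.32 in control. The one that fell in dKO was Mertk, a receptor for the uptake of dead cells, at -0.61 (adjusted p 0.0184, edgeR). With the term for the second library set 12 markers rose and none fell in dKO, Mertk being at -0.51 (adjusted p 0.373, edgeR), and 14 rose in control. Classical monocyte markers summed to 436 to 663 CPM in dKO stumps and 180 to 445 CPM in control stumps, against 83.6 to 241 CPM in intact dKO nerve and 51.4 to 186 CPM in intact control nerve. Of 6 monocyte markers 4 rose in each genotype, but 1 in dKO with the term for the second library set. Ly6c2, the surface antigen that defines these cells in mouse, was at 5.66 to 8.58 CPM in dKO stumps and 5.79 to 7.52 CPM in control stumps, against 5.40 to 8.84 CPM in intact dKO nerve and 4.96 to 8.40 CPM in intact control nerve, with full overlap. Reads of Ly6c2 could be split with its close copy Ly6c1. Neutrophil and lymphocyte markers summed to far less, at 4.59 to 6.24 and 5.74 to 10.6 CPM in dKO stumps, 3.68 to 6.82 and 4.62 to 23.2 CPM in control stumps, and at most 1.49 and 3.09 CPM in any intact nerve. Of 7 tested neutrophil markers 3 rose in dKO and 2 in control, and Ly6g, which defines neutrophils, was at 0.0411 CPM or less in every library and at 0 in all intact control nerves. Of 9 tested lymphocyte markers 5 rose in dKO and 6 in control. With the term for the second library set, 1 neutrophil marker and no lymphocyte marker rose in dKO, and 2 and 5 in control. The neutrophil count in control was 4 without intact control replicate 2. The lymphocyte count in dKO was 2 without intact dKO replicate 3 or dKO stump replicate 3, and 3 without intact dKO replicate 4 or dKO stump replicate 2. In control it was 3 without intact control replicate 1 or 3 or control stump replicate 1. The part of these cells in the members' changes was not tested.

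**Figure D3:**
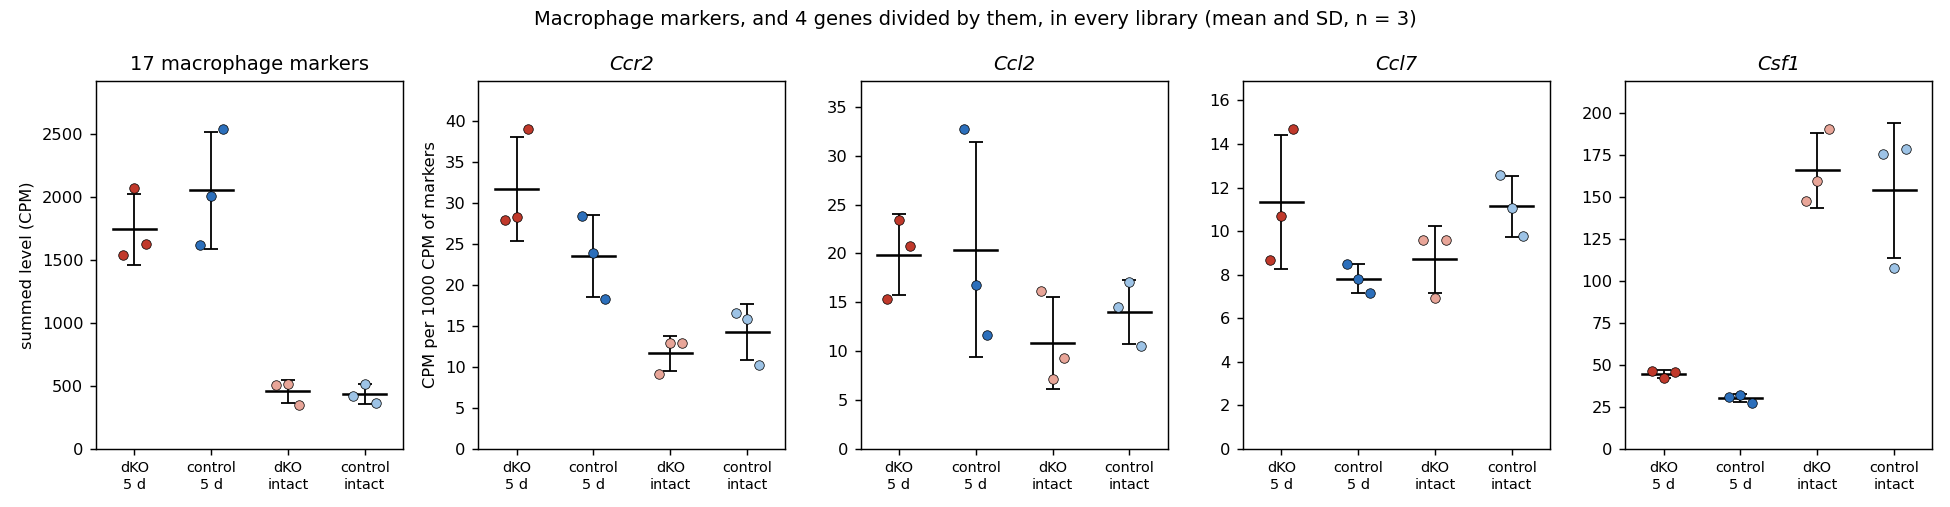
Summed level of 17 macrophage markers in CPM (left), and Ccr2, Ccl2, Ccl7 and Csf1 as CPM per 1000 CPM of these markers, in every library with mean and SD (n = 3 per group). On this scale Ccr2 is higher and Csf1 lower in every stump than in every intact nerve, while Ccl2 overlaps in both genotypes and Ccl7 in dKO.

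Per 1000 CPM of macrophage markers, a description with no test, Ccr2 was at 27.9 to 39.0 in dKO stumps and 18.3 to 28.3 in control stumps, against 9.16 to 12.9 in intact dKO nerve and 10.3 to 16.6 in intact control nerve. The rise of Ccr2 was thus larger than that of the summed markers in both genotypes. Ccl2 was at 15.3 to 23.5 in dKO stumps and 11.6 to 32.7 in control stumps, against 7.10 to 16.1 in intact dKO nerve and 10.5 to 17.1 in intact control nerve, with overlap. Ccl7 was at 8.65 to 14.7 in dKO stumps and 7.14 to 8.50 in control stumps, against 6.92 to 9.61 and 9.77 to 12.6 in intact dKO and control nerve. In control it was lower in every stump on this scale, though its CPM was higher. Csf1 was at 41.9 to 46.2 in dKO stumps and 27.4 to 32.1 in control stumps, against 147 to 190 in intact dKO nerve and 107 to 178 in intact control nerve, without overlap between stumps and intact nerve or between the genotypes at 5 days.

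The genes whose log2 level across the 12 libraries was most like that of a member were picked by Pearson's r among about 10942 well-counted models, and r is given with no p because the split between stump and intact nerve is shared by many genes. Ccr2 was most like Ly86 (r 0.994), Ptpn6 (0.991) and Trem2 (0.991), of which Ly86 and Trem2 encode myeloid surface-receptor proteins. Ccl7 was most like Apobec1 (0.985) and the antigen presentation genes H2-Aa (0.984) and H2-Ab1 (0.983). Ccl3 was most like Hcls1 (0.981), a signalling adaptor of blood cells, Ccl4 like Socs3 (0.977), an inhibitor of cytokine signalling, and Ccl2 like Atp5g2 (0.981). The nearest genes of the other members were Maob (0.918) for Csf1, Trp53inp2 (0.917) for Il1b, Sema5b (0.914) for Tnf, Maged2 (0.838) for Cxcl10 and Slc35c1 (0.806) for Cx3cr1.

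Other genes of the same pathways were taken as whole lists. Over all tested models, 22% rose and 44.7% changed in either direction in dKO, and 24.4% and 46.8% in control. Of 13 tested CC chemokines outside the members, 5 rose and 2 fell in dKO, and 5 rose and 1 fell in control. Ccl9, a macrophage chemokine in mouse, averaged 92.2 CPM in dKO stumps and 77.5 CPM in control stumps, against 12.2 CPM in intact dKO nerve and 10.2 CPM in intact control nerve, a change of 2.92 in each. Ccl8 and Ccl12, further monocyte chemokines, changed by 4.90 and 3.38 in dKO and by 6.01 and 2.83 in control. Of 12 tested CXC, CX3C and XC chemokines, 4 rose and 2 fell in each genotype, with Cxcl5, a neutrophil chemokine, up by 5.47 in dKO and 7.15 in control. The size of these Cxcl5 changes is uncertain, with 5 reads in all in intact dKO nerve and 2 in intact control nerve. Cxcl12, a homeostatic chemokine, fell in both genotypes, with means of 107 CPM in dKO stumps and 98.8 CPM in control stumps, against 213 CPM in intact dKO nerve and 209 CPM in intact control nerve.

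Among 15 tested receptors for chemokines, 7 rose and 1 fell in dKO, and 6 rose and 2 fell in control. Ccr1, a receptor of Ccl3, rose by 3.03 in dKO and 4.14 in control, and Cxcr3, the receptor of Cxcl10, by 4.52 in dKO and 3.30 in control. Cxcr3 had only 5 reads in all in intact dKO nerve and 13 in intact control nerve, so the size of its changes is uncertain. Of 5 tested genes of colony-stimulating factors and their receptors, 3 rose in dKO and 5 in control, among them Csf3r, the receptor of granulocyte colony-stimulating factor, by 2.56 in dKO and 2.38 in control. The count in control was 3 without intact control replicate 1, intact dKO replicate 2 or control stump replicate 2.

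**Figure D4:**
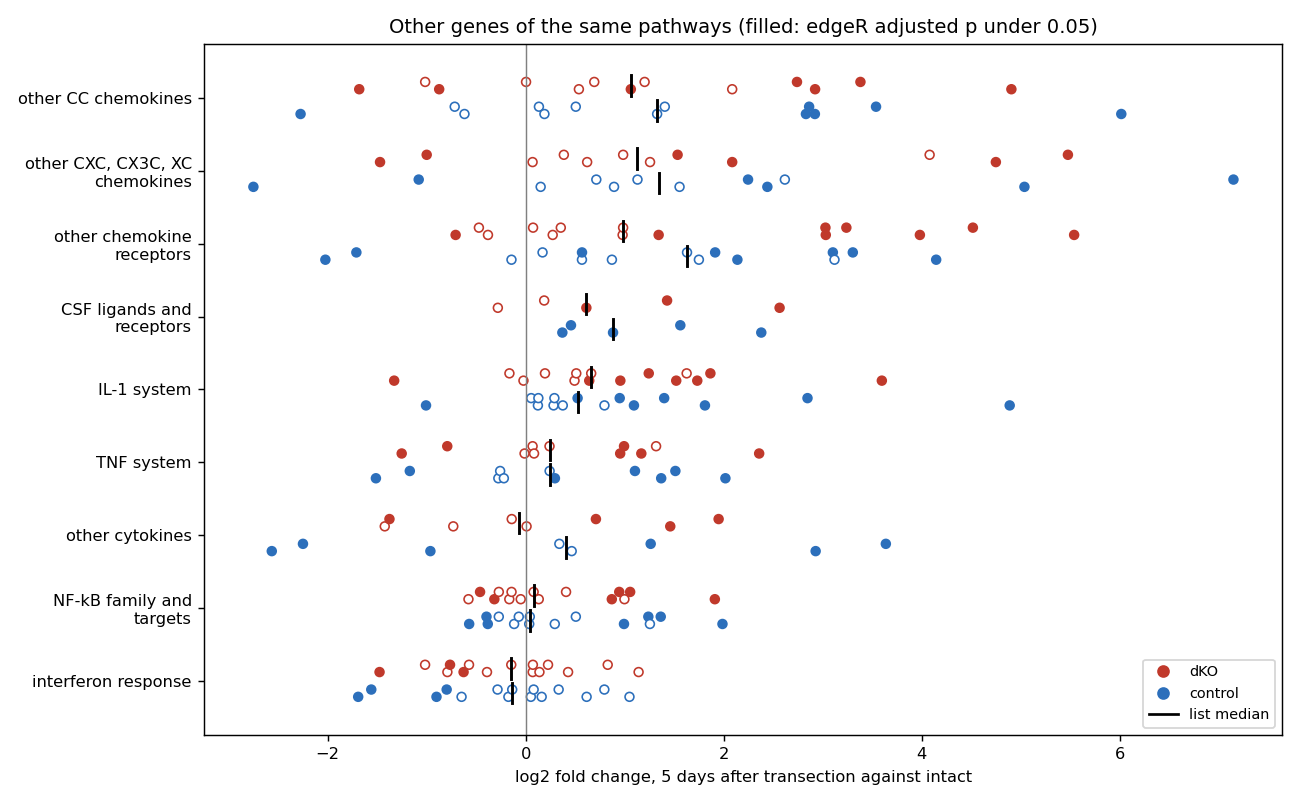
Log2 fold change after transection of each tested gene in lists of related genes, in dKO and control, with list medians as vertical bars and filled points for an adjusted p under 0.05. Chemokine and receptor medians lie near or above 1, and those of the interferon response just below 0.

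Around Il1b, 7 of 15 genes of the interleukin-1 system rose and 1 fell in each genotype. Il1rn, the antagonist of the interleukin-1 receptor, rose by 3.60 in dKO and 4.89 in control, and Pycard, an inflammasome adaptor, by 1.73 in dKO and 1.81 in control. The Il1rn changes rest on 12 reads in all in intact dKO nerve and 5 in intact control nerve. Around Tnf, 4 of 11 rose and 2 fell in dKO, and 5 rose and 2 fell in control, with the receptor gene Tnfrsf1b up by 0.95 in dKO and 1.51 in control and the adaptor Traf1 changed by -1.25 in dKO and -1.51 in control. Of 8 other cytokines, 3 rose and 1 fell in dKO, and 3 rose and 3 fell in control. Tgfb1, an anti-inflammatory cytokine, rose by 1.95 in dKO and 2.93 in control. Of 15 genes of the NF-kB family and its targets, 4 rose and 2 fell in dKO, and 4 rose and 3 fell in control. These counts were near the shares over all tested models, of which 44.7% changed in dKO and 46.8% in control. Of 15 interferon-response genes, the class to which Cxcl10 belongs, none rose, and 3 fell in dKO and 4 in control, with Ifit1 at -1.48 in dKO and -1.56 in control. The count in control was 8 without intact control replicate 3 and 7 without control stump replicate 1.

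With the term for the second library set, the calls in dKO came to 4 CC chemokines, all higher, 6 receptors, of which 4 were higher and 2 lower, 4 genes of the interleukin-1 system, 2 of the TNF system, 1 of the colony-stimulating factors and none of the interferon-response genes. Of the genes named from these lists, Ccr1 at 2.32 (adjusted p 0.134), Tnfrsf1b at 0.67 (adjusted p 0.194), Traf1 at -0.90 (adjusted p 0.166) and Ifit1 at -0.87 (adjusted p 0.474, edgeR) no longer passed in dKO. Those in control stayed within 1.5 times of the counts given for each list.

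Between the genotypes at 5 days, 9 genes of these lists passed, 4 higher and 5 lower in dKO stumps, and 16 by DESeq2. By edgeR, 12.1% of all tested models passed. The higher ones included 1 of 12 CXC, CX3C and XC chemokines, 1 of 15 receptors and 1 of 15 NF-kB family and target genes. The lower ones included 1 of 15 interleukin-1 system genes, 1 of 5 colony-stimulating factor genes and 2 of 8 other cytokines. Of 15 interferon-response genes, 1 was higher and 1 lower. No CC chemokine or TNF system gene passed. Cxcl14, a constitutive epithelial and stromal chemokine, was at 574 to 736 CPM in dKO stumps against 74.5 to 100 CPM in control stumps, a difference of 2.83 ± 0.56 (adjusted p 0.0119, edgeR). Darc, also named Ackr1, a non-signalling receptor of endothelial and red cells that binds Ccl2 and other chemokines, was at 66.3 to 76.7 CPM in dKO stumps against 15.9 to 28.5 CPM in control stumps, a difference of 1.55 ± 0.17 (adjusted p 6.02e-05, edgeR). Its model overlaps Cadm3, and its counts cannot be told apart from those of that gene. In intact nerve Darc stood at 112 to 121 CPM in dKO and 93.8 to 105 CPM in control, above the stumps of each genotype. Endothelial markers summed to 648 to 944 CPM in dKO stumps against 467 to 549 CPM in control stumps. The part of endothelial cells in the Darc difference was not tested. Tgfb1 was at 67.6 to 82.4 CPM in dKO stumps against 121 to 154 CPM in control stumps, with a difference of -0.86 ± 0.14 (adjusted p 0.00133, edgeR). Mif, a macrophage cytokine, differed by -0.75 ± 0.19 (adjusted p 0.0190), Irf1, a transcription factor of interferon-induced genes, by 0.61 ± 0.12 (adjusted p 0.00344) and Relb, an NF-kB subunit, by 0.53 ± 0.13 (adjusted p 0.0142, edgeR). With the term for the second library set, Darc alone of the 9 still passed (1.31, adjusted p 0.0144, edgeR), and Tgfb1 differed by -0.68 (adjusted p 0.105) and Cxcl14 by 2.74 (adjusted p 0.255, edgeR).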

How the data were processed

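Libraries (12) were made with the Ion Total RNA-Seq Kit after polyA selection, per the labels' protocols. The deposited table holds whole-number counts of reads per gene model, made by the authors on mm10. DESeq2 and R 4.2.1 are named in the submitters' processing notes. Aligner, counter, strand setting and annotation: not given in the sources used here. In the deposited counts, reads appeared to be assigned to every model whose span covers them, on either strand, so totals can hold a read more than once and overlapping genes are uncertain. The authors' normalized table was not used.

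The test was that of edgeR 4.0.16 under R 4.3.3 (filterByExpr with a minimum count of 10, TMM, robust quasi-likelihood F-test, 1 model with a mean per group over 12 libraries). P-values were adjusted by Benjamini-Hochberg over 22384 models in each of 5 comparisons, with a threshold of 0.05. They set a difference against the spread between libraries of a group. All 12 libraries were taken as independent, though stump and intact nerve may come from the same mice. CPM uses TMM-scaled totals. SEs and 95% intervals come from the F statistic. The scripts were first tested on simulated data. Alternatives were DESeq2 1.42.0, RLE size factors, no low-count filter, only the compared groups, a replicate block, a term for the second library set and leaving out each library.

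The members and the gene lists were chosen with earlier results of these data known. From each list, at most the 4 called genes with the smallest p in a comparison were named, and for each member the 3 genes with the highest Pearson's r. Some with overlapping models were left out. Ccl25, Ackr4, Hbb-bs and Hbb-bt were not analysed here. Positions are from GENCODE M21 on GRCm38 and promoters from RefSeq on GRCm38.p6, both 1-based.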

Additional observations from a re-analysis of the deposited data

How the results depend on the processing

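Of 885 member values under the alternatives, 877 kept their direction and their side of the threshold or stayed uncalled. Some of those that stayed uncalled changed direction. The other 8, for Ccl3, Ccl4, Cxcl10 and Il1b in the dKO injury change, are given with those genes. The number of members called stayed 5 in the control injury change and 0 in both genotype comparisons and in the difference of the injury changes under every alternative, and in the dKO injury change was 5 to 6 with 1 library left out and 3 with the term for the second library set. Over all models the counts moved more. With that term, 4299 models were called in the dKO injury change (9997 without it), 515 between genotypes at 5 days (2707), 3 in intact nerve (1) and 172 in the difference of the injury changes (650). With the replicate block the last 3 counts were 1386, 0 and 410. DESeq2 called 9 in intact nerve and 1075 in the difference; in intact nerve RLE size factors gave 2, no low-count filter 5 and only the compared groups 0. Leaving out 1 library gave 8114 to 10995 (dKO injury), 9193 to 10523 (control injury), 1577 to 4225 (genotype at 5 days), 0 to 3 (intact nerve) and 352 to 1276 (difference). At 5 days the count moved by over 1.5 times without control stump replicate 4 (4225) or 1 (1714) and without dKO stump replicate 2 (1692) or 3 (1577). The difference moved so without control stump replicate 4 (1276), dKO stump replicate 3 (352), intact dKO replicate 2 (379) or 4 (426) and intact control replicate 3 (419). The cause was not tested. Same-numbered libraries deviated together with correlations of at most 0.118 in dKO, -0.013 in one of its pairs, and below 0 in both control pairs. The numbers were therefore not taken as pairs, though so few pairs cannot settle whether stump and intact nerve share mice. The replicate block changed no call of a member. It joined equal numbers across both genotypes, so it was not a pairing within mice and does not show what such a pairing would give. Of 801 list counts, 730 stayed within 1.5 times. Il1b and Tnf had at most 42 and 26 reads in a library.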
